A study of Homo sapiens with 12 samples.

Results

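Mitochondrial ribosomal protein genes are the nuclear genes whose symbols begin with MRPL or MRPS, and their products build the ribosome inside mitochondria. Members were chosen by symbol alone, as probe sets of the array with exactly 1 gene symbol of that form. This gave 71 members, 48 with MRPL and 23 with MRPS symbols, out of 17958 genes measured. Where a gene had several probe sets, the one with the highest mean over all arrays was taken.

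The mitochondrial ribosome translates the few messages of the mitochondrial genome, which code for membrane subunits of the respiratory chain. All of its proteins are made in the cytosol and imported, and they assemble with RNAs from the mitochondrial genome into a large subunit, where peptide bonds form, and a small subunit, which reads the message. Some of the proteins have bacterial homologues and others were added in mitochondria. Transcription factors known to act at the promoters of nuclear-encoded mitochondrial genes include YY1, the ETS-family factor GABP and NRF1.

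RNA came from 231BR cells, a brain-homing line made from MDA-MB-231, an established human breast cancer cell line without estrogen receptor alpha. They carried EGFP, received vehicle or 10 nM estradiol, and grew either alone or with mouse astrocytes. Co-cultured cells were sorted for EGFP after 24 h, and the labels name sorted human cells for the RNA of every sample. The 12 arrays form 4 groups of 3, named by treatment (vehicle or estradiol) and culture (alone or with astrocytes). By its title the series asks about estrogen acting on 231BR cells through astrocytes that have an estrogen receptor. One cell line was used in all 4 groups. Nothing in the labels tells separate cultures from repeats of one, so the p-values cover only the spread of these samples, part of which may be technical. The age, sex and strain of the mice behind the astrocytes are not given in the sources used here.

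Of the 71 members, 49 belong to the large subunit, MRPS30 among them despite its symbol, and 22 to the small subunit. Among the large-subunit members 30 have a bacterial homologue and 19 are specific to mitochondria, against 12 and 10 in the small subunit. Of 77 such symbols in RefSeq, 6 were not measured alone because their probe sets also name a neighbouring gene. These were MRPL57, MRPS12, MRPS18A, MRPS18C, MRPS28 and MRPS6, so MRPS18B is the only paralog of its trio among the members. Its 3 probe sets hold identical values, as do the 2 of MRPL20. The 2 probe sets of MRPL36 changed by 0.29 and 0.07 with astrocytes on the log2 scale, with the same sign.

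The sequences around the starts of 64 members were given in RefSeq's table for GRCh38.p14, each running 250 bases before to 50 after a transcription start. They were searched on both strands for letters close to the sites of the 3 regulators, AANATGGC for YY1, CCGGAAG for ETS factors, and GCGCA, any base and GCGC in a row for NRF1. The following 90 bases, from 60 before to 30 after the start, belong to 3 members that fell with astrocytes and 3 that rose. They are shown to let the starts of called members be read beside their changes, and the falls of MRPS27 and MRPS30 and the rise of MRPL38 did not pass under every scaling, as given below. Each is read 5′ to 3′ on the gene's own strand, and capitals mark a match on either strand.

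MRPS25 (chr3:15065286-15065375, minus strand): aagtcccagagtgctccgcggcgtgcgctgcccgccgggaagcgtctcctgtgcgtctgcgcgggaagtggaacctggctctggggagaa
MRPS27 (chr5:72320211-72320300, minus strand): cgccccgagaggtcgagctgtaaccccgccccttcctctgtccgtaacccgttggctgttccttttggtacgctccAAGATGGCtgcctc
MRPS30 (chr5:44808887-44808976, plus strand): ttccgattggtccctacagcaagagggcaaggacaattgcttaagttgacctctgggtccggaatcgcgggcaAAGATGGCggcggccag
MRPL38 (chr17:75904855-75904944, minus strand): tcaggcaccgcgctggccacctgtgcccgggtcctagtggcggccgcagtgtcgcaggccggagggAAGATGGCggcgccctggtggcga
MRPL54 (chr19:3762622-3762711, plus strand): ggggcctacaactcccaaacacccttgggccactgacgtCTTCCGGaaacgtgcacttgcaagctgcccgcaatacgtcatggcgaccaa
MRPL40 (chr22:19432485-19432574, plus strand): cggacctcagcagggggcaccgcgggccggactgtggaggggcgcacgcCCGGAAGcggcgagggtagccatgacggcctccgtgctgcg

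The YY1 letters stand just after the start of MRPS27 and MRPS30, which fell, and of MRPL38, which rose. The ETS letters stand before the start of MRPL54, on the opposite strand, and of MRPL40, on the gene's strand. None of the 3 strings is in the stretch shown for MRPS25. The YY1 letters stood in 25 of 79 member windows (31.6%), against 7.48% of all 19637 windows in the table that belong to measured genes. By gene the shares were 37.5% of members and 9.93% of genes. The contrast was wider downstream of the start on the gene's own strand, where 29.1% of member windows and 3.04% of all windows held the letters. The string contains ATG, the letters of a start codon, and which ATG begins translation was not examined. ETS letters stood in 36.7% of member windows against 12.8%, and NRF1 letters in 11.4% against 7.58%. These are letters in a window, not measured binding.

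Signals of the members were alike in the 6 arrays of cells alone and spread out with astrocytes. The member median was between 7.16 and 7.32 (log2) on the arrays alone. It was 7.28, 6.85 and 7.50 on replicates 1 to 3 of vehicle with astrocytes, and 7.57, 5.92 and 7.43 on those of estradiol with astrocytes. One array stood apart, replicate 2 of the latter group. It gave the lowest of all 12 values for 54 of the 71 members, and replicate 2 of vehicle with astrocytes did so for 7 more. The first of these arrays lay below the mean of its other replicates for 64 members, by a median difference of −1.47, where the median over all genes was 0.09. Its differences ran from −4.08 for MRPL45, a protein of the polypeptide exit site, to 0.51 for MRPL23. In the second the median difference was −0.58, against −0.04 over all genes, and again 64 members lay below. The median SD of a member over the 3 replicates was 0.22 in vehicle alone, 0.11 in estradiol alone, 0.40 in vehicle with astrocytes and 0.86 in estradiol with astrocytes. Over all genes it was 0.21, 0.14, 0.33 and 0.54.

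**Figure D1:**
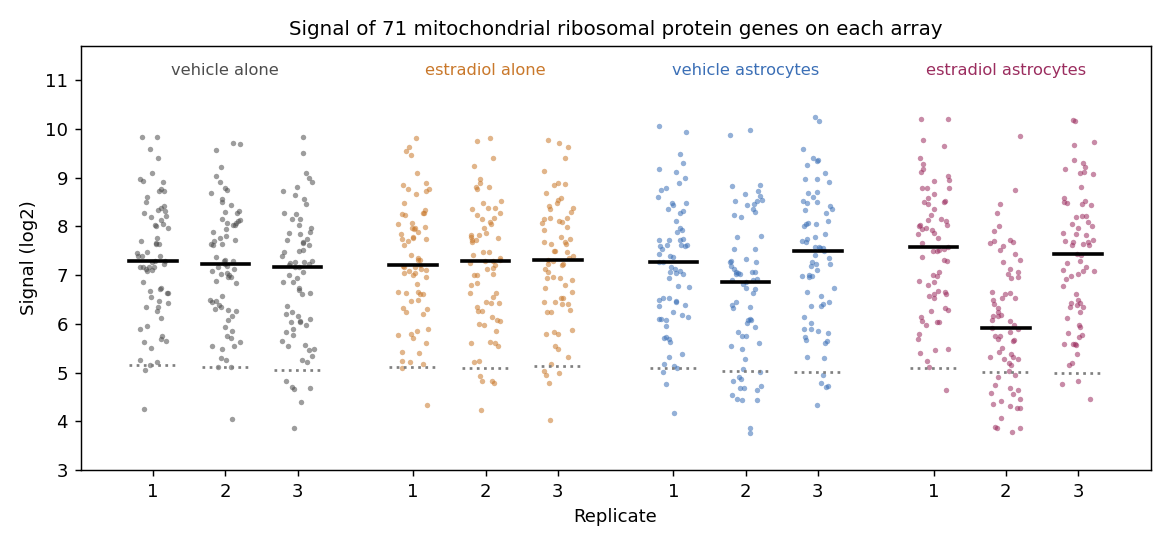
Signal (log2, vertical axis) of each of the 71 members (points, spread sideways for visibility) on the 12 arrays by group and replicate. Solid lines are the members' median and dotted lines the median of all genes. The members' median was 5.92 on replicate 2 of estradiol with astrocytes and 6.85 or more on the other arrays.

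The arrays with astrocytes also differed as a whole. The SD of gene signals on an array was 1.77 to 2.02 alone and 1.26 to 1.85 with astrocytes, lowest on the array that stood apart. Of 10 astrocyte markers 5 rose and 2 fell between the 6 arrays alone and the 6 with astrocytes. Their summed log2 signal was 47.4 to 49.6 alone and 49.1 to 52.5 with astrocytes. GFAP, the astrocyte filament protein, went from 4.98 to 5.92 and SLC1A3, a glutamate transporter, from 6.51 to 5.56, while the water channel AQP4 was 3.03 and 3.11. Microglial markers rose in 3 of 6 cases (sums 24.5 to 26.9 alone and 26.9 to 34.0 with astrocytes), oligodendrocyte markers in 3 of 4 (16.7 to 18.2 and 18.5 to 21.7) and neuronal markers in 2 of 4 with 1 fall (17.0 to 18.4 and 17.9 to 20.4). Of 6 genes known to be high in the line, 3 fell and 1 rose, with changes from −1.45 to 0.62. VIM was at 10.68 and 10.21 and EGFR at 9.09 and 7.64. Of 3 genes known to be low in the line 1 rose, with changes from 0.03 to 0.8. Among these ESR1, the estrogen receptor alpha gene, was at 3.53 and 4.33. Of all genes 24.5% were called higher and 23.0% lower. Their median change was 0.50 at signals of 3.5 to 4.0 and −0.84 at 7.5 to 8.0. Median changes of the astrocyte, microglial, oligodendrocyte and neuronal markers were 0.27, 0.81, 0.78 and 0.54. They were 0.24, 0.56, 0.64 and 0.42 after quantile normalization, and 0.06, 0.14, 0.11 and 0.05 with each array's SD as a covariate. No test set the markers against other genes, and the part of these shifts in the results on the members was not tested.

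On the scale as deposited, members were called in both directions with astrocyte co-culture, as were genes in general. Over both treatments, 6 arrays against 6, 9 members rose and 7 fell by limma's moderated test with Benjamini-Hochberg adjustment over all genes (adjusted p under 0.05). The 16 called are 22.5% of the members, where 47.5% of all genes were called, 24.5% higher and 23.0% lower. The rises were led by MRPL54, MRPL23, MRPL12 and MRPL40 of the large subunit, and the falls by MRPS25, MRPL30, MRPS5 and MRPS27. The groups did not overlap for 4 members that were higher and 1 that was lower, against 12.2% and 11.3% of all genes. The direction of the members as a whole depended on scaling. Quantile normalization gave 24 rises and 1 fall, where 32.3% of all genes were called, 50.3% of those calls higher. Each array's SD as a covariate gave 31 rises and 1 fall, where 13.6% of all genes were called, 58.1% of those calls higher. The members' median change was −0.16 as deposited (all genes 0.07), 0.19 after quantile normalization (all genes 0.05) and 0.56 with the array SD (all genes 0.04). With single arrays left out it ran from −0.34 to 0.09, the latter without replicate 2 of estradiol with astrocytes. In bulk RNA, fewer cells expressing a gene and less RNA per cell cannot be told apart.

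**Figure D2:**
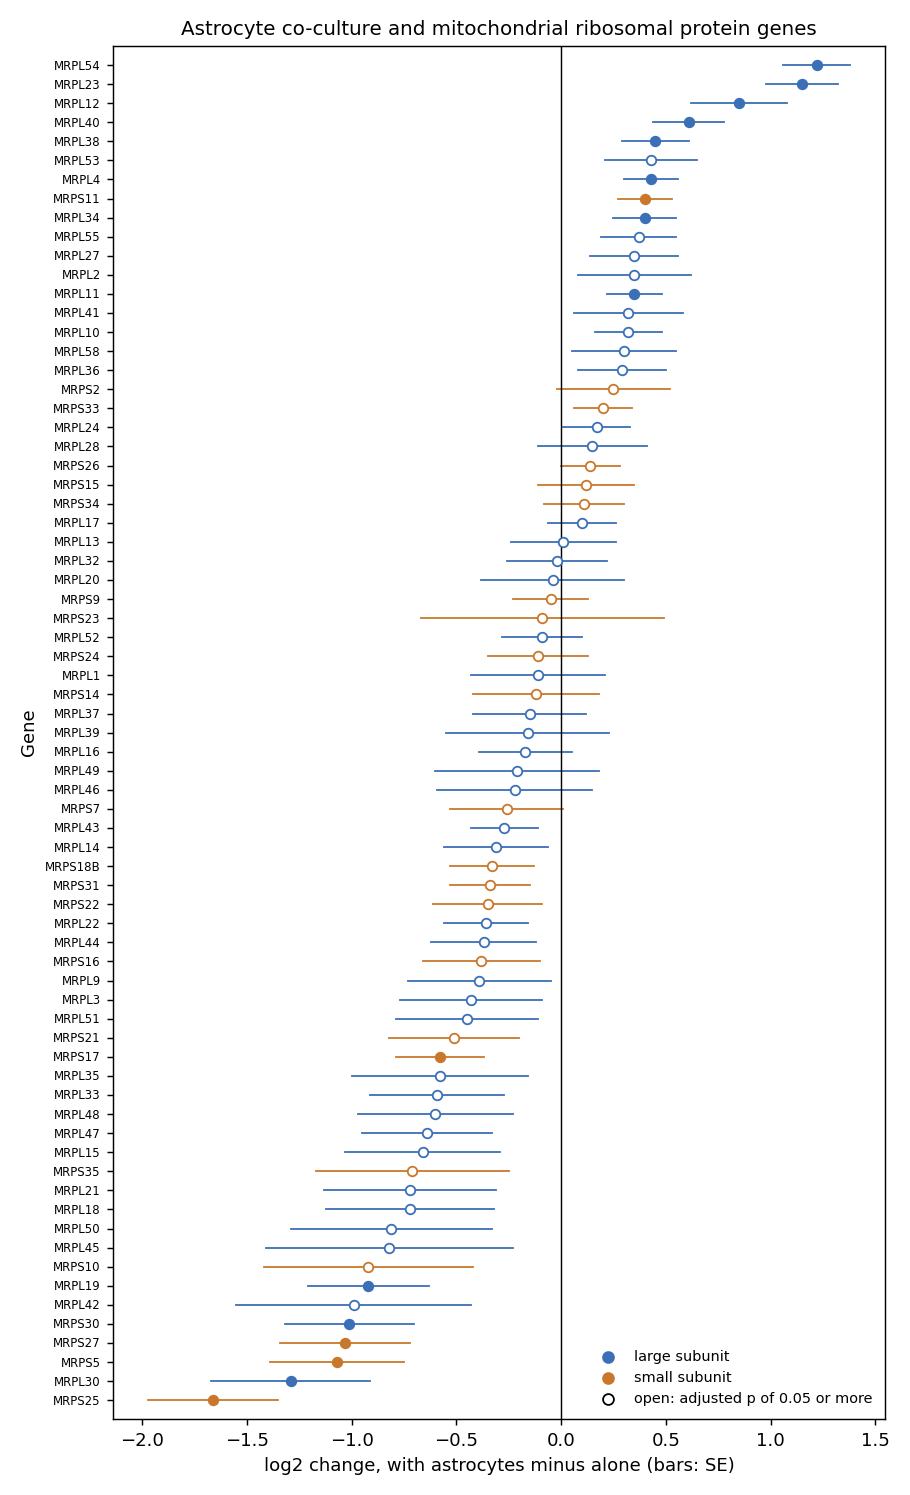
Change of each member with astrocytes (horizontal axis, log2, mean of both astrocyte groups minus mean of both groups alone, bars SE), ordered from the largest rise at the top to the largest fall. Filled points passed the adjusted p threshold of 0.05, 9 higher and 7 lower, and large-subunit members make up 8 of the 9 higher.

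The largest rise was that of MRPL54, a large-subunit protein specific to mitochondria. Its signal was 5.50, 5.55 and 5.66 in vehicle alone and 5.42, 5.61 and 5.18 in estradiol alone. With astrocytes it was 6.53, 6.74 and 7.11 under vehicle and 6.33, 6.94 and 6.61 under estradiol. Every array with astrocytes lay above every array alone, and the rise was 1.22 (SE 0.16, 2.34-fold, limma adjusted p = 0.00218). MRPL23 is the large-subunit protein at the rim of the exit tunnel. It gave 6.43, 6.48 and 6.21 in vehicle alone, 6.46, 6.56 and 6.40 in estradiol alone, 7.07, 7.81 and 7.57 in vehicle with astrocytes, and 7.37, 8.01 and 7.62 in estradiol with astrocytes. The groups did not overlap here either, and the rise was 1.15 (SE 0.17, 2.22-fold, limma adjusted p = 0.00277). On replicate 2 of both astrocyte groups, where 64 members lay below the mean of the other replicates of the group, MRPL23 had its highest values.

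MRPL12, the stalk protein that recruits translation factors, read 7.65, 7.63 and 7.87 in vehicle alone and 7.74, 7.86 and 7.63 in estradiol alone. It read 8.48, 8.62 and 8.92 in vehicle with astrocytes and 8.79, 7.60 and 9.08 in estradiol with astrocytes. One of the 6 co-culture arrays, replicate 2 of estradiol with astrocytes, lay just below the arrays alone, and the others lay above them. Its rise was 0.85 (SE 0.23, 1.81-fold, limma adjusted p = 0.0145). MRPL40, a protein of the central protuberance, showed the same arrangement. Its values were 7.16, 7.19 and 7.26 in vehicle alone, 7.32, 7.42 and 7.22 in estradiol alone, 7.88, 8.20 and 8.07 in vehicle with astrocytes and 8.02, 7.12 and 7.97 in estradiol with astrocytes. It rose by 0.61 (SE 0.17, 1.53-fold, limma adjusted p = 0.0160).

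The other 5 rises were smaller, between 0.35 and 0.45. MRPL38 of the central protuberance rose by 0.45 (limma adjusted p = 0.0389). MRPL4, which lines the inner exit tunnel, rose by 0.43 with no overlap between 7.32 to 7.51 alone and 7.54 to 8.04 with astrocytes (adjusted p = 0.0243). MRPS11, a protein of the small subunit's platform and its only rise, went up by 0.40 from 9.55 to 9.84 alone to 9.85 to 10.25 with astrocytes (adjusted p = 0.0291). MRPL34 rose by 0.40 (adjusted p = 0.0470) and MRPL11, at the base of the stalk, by 0.35 (adjusted p = 0.0408). Over all genes 24.5% were called higher, and the counts by place are too few to be set against that share. The 4 stalk proteins (MRPL10, MRPL11, MRPL12 and MRPL53) had changes from 0.32 to 0.85 and a median of 0.39, and 2 of them rose. Their median was 0.82 after quantile normalization and 0.70 with the array SD. The 7 proteins of the central protuberance had a median of 0.35 and ran from −0.72 for MRPL18, which did not pass, to 0.61 for MRPL40, with 2 rises, and their median was 0.77 and 0.56 under those settings. The 7 at the exit tunnel rim had a median of −0.36, which became −0.14 and 0.46, and MRPL23 alone passed.

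MRPS25, a small-subunit protein found in mitochondria but not in bacteria, fell most. Its signal was 7.16, 7.01 and 6.85 in vehicle alone and 6.95 to 7.01 in estradiol alone. It was 6.19, 4.64 and 5.66 in vehicle with astrocytes and 6.07, 4.28 and 5.15 in estradiol with astrocytes. All 6 arrays with astrocytes lay below the 6 alone, lowest on replicate 2 of each group, and the change was −1.66 (SE 0.31, 3.17-fold lower, limma adjusted p = 0.00468). MRPL30, a large-subunit protein with a bacterial homologue, gave 7.46, 7.02 and 6.36 in vehicle alone and 7.05, 6.64 and 6.80 in estradiol alone. With astrocytes it gave 6.15, 4.87 and 5.90 under vehicle and 6.65, 4.27 and 5.73 under estradiol. The sets overlap at replicate 1 of estradiol with astrocytes, and the change was −1.29 (SE 0.38, 2.45-fold lower, limma adjusted p = 0.0191).

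A further 5 members fell. MRPS5, a small-subunit protein at the message entry channel, fell by 1.07 (limma adjusted p = 0.0219) and MRPS27, a pentatricopeptide-repeat protein of the small subunit, by 1.03 (adjusted p = 0.0227). MRPS30 fell by 1.01 (adjusted p = 0.0235), MRPL19 by 0.92 (adjusted p = 0.0254) and MRPS17 by 0.58 (adjusted p = 0.0412). In each of these 5 the groups overlapped. With the array SD as a covariate the changes of the 6 falls other than MRPS25 were between −0.07 and −0.02 and none passed, and none of the 6 passed after quantile normalization. MRPS25 passed both ways, at −0.76 and −1.45. The 9 rises all passed after quantile normalization, and 7 of them did with the array SD (MRPL11 and MRPL38 did not).

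**Figure D3:**
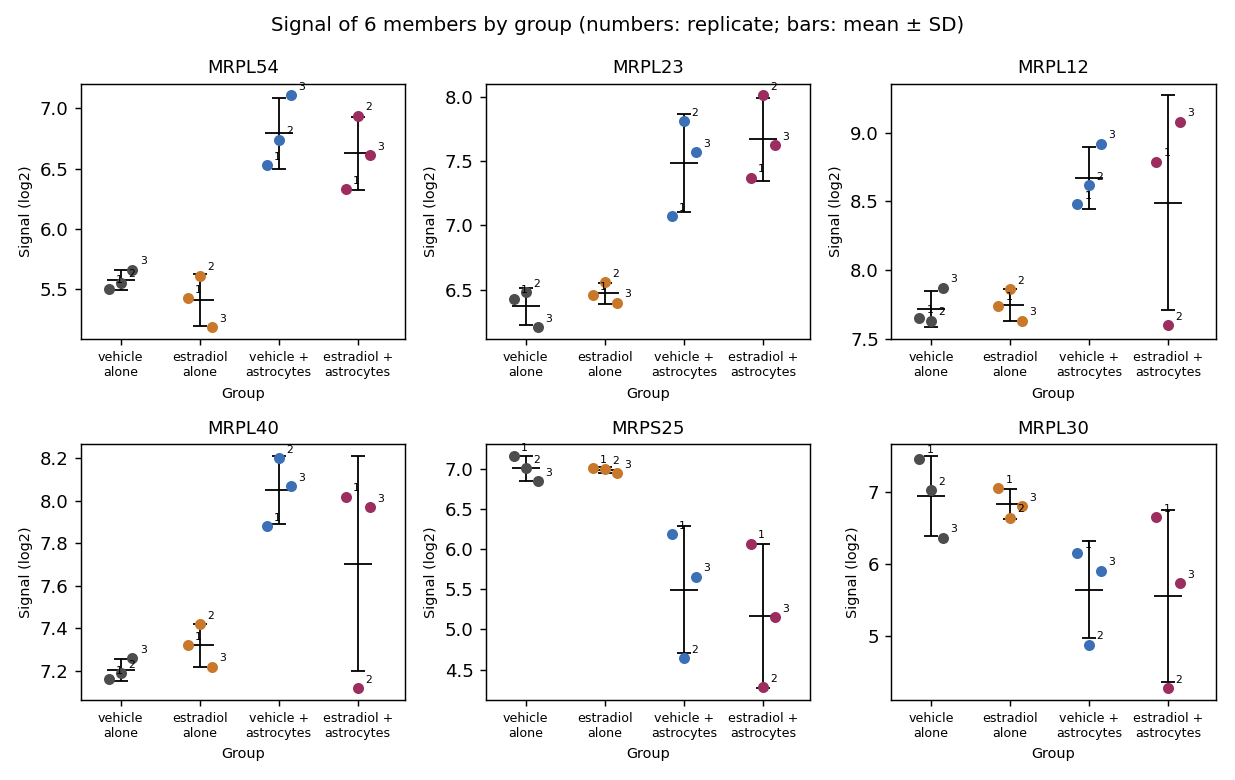
Signal (log2, vertical axis) of 6 members in the 4 groups (horizontal axis), with each array as a point labelled by its replicate number and bars for the mean ± SD of 3 arrays. MRPL54 and MRPL23 with astrocytes lie above all arrays alone and MRPS25 below them, while for MRPL12 and MRPL40 replicate 2 of estradiol with astrocytes lies just below the arrays alone.

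By subunit, 8 of 49 large-subunit members rose and 3 fell, and 1 of 22 small-subunit members rose and 4 fell, where 24.5% of all genes were called higher and 23.0% lower. With quantile normalization the counts were 19 rises and no fall against 5 rises and 1 fall, and with the array SD 24 and 0 against 7 and 1. Of all genes 32.3% were called after quantile normalization and 13.6% with the array SD, with 50.3% and 58.1% of those calls higher. The medians of the large and small subunit were −0.15 and −0.29 as deposited and 0.24 and 0.01 after quantile normalization. The difference between subunits was not tested. By origin there were 6 rises and 4 falls among 42 members that have bacterial homologues and 3 of each among 29 specific to mitochondria. A set of 5 members kept their call in all 21 other settings tried, which include each of the 12 arrays left out in turn. They were MRPL54, MRPL23, MRPL12, MRPL40 and MRPS25. The count itself moved with single arrays. It was 6 without replicate 1 of estradiol alone, 9 without its replicate 3, 5 without replicate 1 of vehicle alone and 7 without its replicate 2. It was 8 without replicate 2 of vehicle with astrocytes and 10 without its replicate 3. Without replicate 1 of estradiol with astrocytes it was 25 (8 higher, 17 lower), and without replicate 2 it was 24 (18 higher, 6 lower).

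The change with astrocytes was set beside that of other genes of like signal, although signal depends on the probe as well as on the RNA. Among the 4032 genes with a signal alone of 6.31 to 8.04, a band that holds 35 members and was chosen after the values were seen, the median change was −0.73, with 3.67% called higher and 49.2% lower. The 35 members in it had a median of −0.26, with 6 higher and 6 lower, 17.1% each. Over all their signals, cytosolic ribosomal protein genes had a median of 0.01 and oxidative phosphorylation subunits of −0.09, so a median above that of the band was not particular to the members. No test of these differences was made. Longer genes had lower changes, with Spearman rho −0.468 over the members and −0.33 over the 17933 genes with a length in RefSeq.

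**Figure D4:**
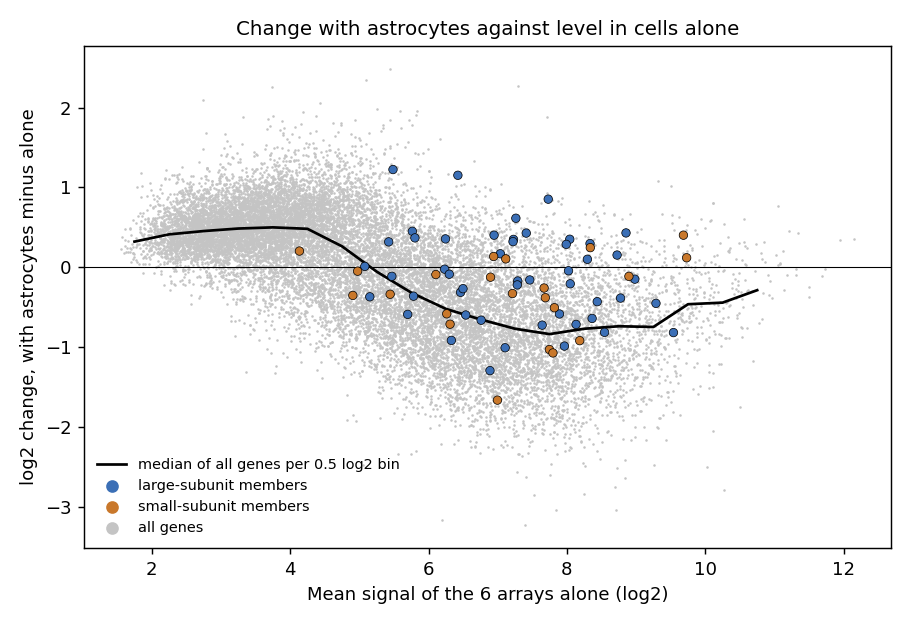
Change with astrocytes (vertical axis, log2) against mean signal in the 6 arrays alone (horizontal axis, log2) for all 17958 genes (grey) and the 71 members (large subunit blue, small subunit orange). The black line, the median of all genes per bin of 0.5 log2, is near −0.84 at signals of 7.5 to 8.0, where most members lie above it.

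Under vehicle alone the same contrast of 3 arrays against 3 called no member, and 0.0557% of all genes. At an unadjusted p under 0.05 it took 10 members, against 28.2% of genes. The largest changes were those of MRPL54 (1.22, limma adjusted p = 0.0742), MRPL23 (1.11, adjusted p = 0.0763) and MRPL12 (0.96, adjusted p = 0.111) upward, and of MRPS25 (−1.51, adjusted p = 0.0938), MRPL30 (−1.31, adjusted p = 0.147) and MRPS27 (−1.05, adjusted p = 0.156) downward. Astrocyte and control arrays did not overlap for 14 members that were higher and 6 that were lower, against 23.4% and 18.4% of all genes. Other arrays enter this fit through the shared spread. Members called numbered 12 (6 higher, 6 lower) without replicate 2 of estradiol with astrocytes, 4 without its replicate 1 and 3 without replicate 1 of vehicle with astrocytes.

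Under estradiol 3 members were called (4.23%), where 13.2% of all genes were. MRPL54 rose by 1.22 (SE 0.22, limma adjusted p = 0.0306), MRPL23 rose by 1.20 (SE 0.23, adjusted p = 0.0332) and MRPS25 fell by 1.82 (SE 0.44, adjusted p = 0.0364). At an unadjusted p under 0.05 there were 11 members, against 43.9% of genes. Arrays did not overlap for 6 members that were higher and 4 that were lower, against 27.0% and 23.9% of genes. None was called without any 1 of the 3 arrays of estradiol alone, without replicate 1 or 2 of vehicle alone, without replicate 3 of estradiol with astrocytes, or when the 6 arrays compared were fitted by themselves. Without replicate 1 of estradiol with astrocytes 10 were called, 2 higher and 8 lower. The comparisons under vehicle, under estradiol and over both treatments share arrays, so their likeness is not independent.

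For estradiol in cells alone no member passed the test, and none of the 17958 genes did (0.0% called). No member and 1 gene (0.00557%) had an unadjusted p under 0.05. The spread used in this test is shared by all 4 groups. The median member SD was 0.22 and 0.11 in the groups alone and 0.40 and 0.86 with astrocytes. Changes in cells alone could thus be missed, and the lack of calls does not show that estradiol had no effect. The changes of the 71 ran from −0.17 for MRPL54 to 0.36 for MRPS23 (SE 0.81), a small-subunit protein, with a median of 0.07, and 58 were above 0. Of all 17958 genes 9968 were above 0, and so were 60 of 71 oxidative phosphorylation subunits. Without replicate 3 of vehicle alone the members' median was −0.03. After quantile normalization 47 members were above 0, and with the array SD 38 were. MRPL21 and MRPL15 followed MRPS23 at 0.24 each, and MRPL13 and MRPL30 were at −0.11. Arrays did not overlap for 1 member, MRPL21, against 3.21% of genes.

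With astrocytes present estradiol again changed no member and no gene by the adjusted limma p (0.0% called). At an unadjusted p under 0.05 there were 1 member and 142 genes (0.791%). The member was MRPS33, a small-subunit protein, at 4.17, 3.76 and 4.34 under vehicle and 4.64, 4.64 and 4.47 under estradiol, a difference of 0.50 (SE 0.20). It was the 1 member whose arrays did not overlap, against 2.18% of genes. MRPL52 and MRPS17 differed by 0.43 and 0.35. MRPL45, MRPL51 and MRPS10 had the lowest values, −0.67, −0.49 and −0.48, with SE of 0.84, 0.48 and 0.71. The median over members was −0.12, and it ran from −0.41 to 0.36 when single arrays were left out.

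The effect of estradiol did not pass a test of difference between cells with and without astrocytes for any member or gene (0.0% called), and no member against 31 genes (0.173%) had an unadjusted p under 0.05. The members' interaction terms ran from −0.75 for MRPL45 (SE 1.20) to 0.42 for MRPL22 (SE 0.41). Their median of −0.20 became 0.31 without replicate 2 of estradiol with astrocytes. The term was 0.09 (SE 0.33) for MRPL23 and −0.31 (SE 0.62) for MRPS25.

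Proteins that work with the mitochondrial ribosome are given here for the same contrast over both treatments. Their counts stand beside 24.5% higher and 23.0% lower over all genes, and beside 3.67% higher and 49.2% lower among genes with signals of 6.31 to 8.04. Falls thus outnumbered rises among genes in general at such signals. The lists were not limited to that band, so the comparison with it is only partial. Of 4 ribosomal proteins measured that lack an MRP symbol, GADD45GIP1, a large-subunit protein, rose by 0.95 (SE 0.17, limma adjusted p = 0.00430). PTCD3 was at −1.12 (adjusted p = 0.0646), DAP3 at −0.60 (adjusted p = 0.183) and CHCHD1 at 0.04, and none of these passed. Among 15 translation factors and message-handling proteins 5 fell and none rose, with a median of −0.47. The falls were those of the elongation factor GFM1 (−0.76), the release factor homologue MTRF1 (−0.67), the recycling factor MRRF (−0.66), GUF1 (−1.55), and LRPPRC (−1.39), which stabilizes mitochondrial messages. Of 27 ribosome assembly factors 8 fell and none rose, with a median of −0.39. The RNA-granule protein GRSF1 fell by 1.66, the protease subunits SPG7 by 1.10 and AFG3L2 by 0.86, and MIEF1 by 0.95. Of 20 aminoacyl-tRNA synthetases and partners 9 fell and none rose, with a median of −0.61, among them IARS2 (−1.38), AARS2 (−0.53), QRSL1 (−0.57) and GARS1 (−1.64), which also serves the cytosol.

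With the array SD as a covariate the factors gave 3 rises and no fall (median 0.16), the assembly list 6 rises and 2 falls (0.11) and the synthetases 2 rises and 1 fall (0.08). After quantile normalization they gave 1 and 3 (−0.31), 3 and 4 (−0.07), and 2 and 3 (−0.31). Of all genes 13.6% were called with the array SD and 32.3% after quantile normalization, with 58.1% and 50.3% of those calls higher.

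Of 17 genes for transcription and copying of the mitochondrial genome, 7 fell and 1 rose, with a median of −0.79. The falls included the polymerase subunit POLG2 (−1.29), the helicase TWNK (−1.21), the exonuclease MGME1 (−1.36) and the topoisomerase TOP1MT (−0.76). HSD17B10, a subunit of mitochondrial RNase P, rose by 0.58. The list gave 1 rise and 4 falls (median −0.49) after quantile normalization, and 4 rises and no fall (0.18) with the array SD. Under those settings 32.3% and 13.6% of all genes were called. Among 11 regulators of nuclear-encoded mitochondrial genes 4 fell and 1 rose. MYC fell by 0.68 from 9.21 to 8.53, the GABP subunit GABPA by 1.06 from 6.18 to 5.12, and YY1 by 0.90 from 7.71 to 6.81, while the lysosomal regulator TFEB rose by 0.61 and NRF1 was at −0.14 (adjusted p = 0.388). Of the regulators 1 fell after quantile normalization and none passed with the array SD. Beside these, 62 cytosolic ribosomal protein genes had a median of 0.01 with 6 rises and 2 falls, and 71 nuclear-encoded oxidative phosphorylation subunits −0.09 with 10 rises and 2 falls. With the array SD these medians were 0.36 and 0.54, against 0.56 for the members. Differences between these lists and the members were not tested.

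The changes of the members were also set against the letters at their starts. The 24 members with YY1 letters had a median change of −0.24 with 1 rise and 2 falls, and the 40 without had 0.01 with 7 rises and 5 falls. With and without ETS letters the medians were −0.17 (27 members) and −0.16 (37 members). For NRF1 letters they were 0.02 (8 members) and −0.19 (56 members). Over all genes 24.5% were called higher and 23.0% lower. These medians by letters are on the deposited scale only. The median of all 71 members moved from −0.16 on that scale to 0.19 after quantile normalization and 0.56 with the array SD. No difference by letters was tested. Of 64 members with a known start, 23 (35.9%) had a gene starting within 1000 bases on the opposite strand and pointing away, against 22.8% of all genes with one. MRPL46, of the large subunit, and MRPS11, of the small subunit, start 320 bases apart, and their changes were −0.22 (adjusted p = 0.613) and 0.40 (adjusted p = 0.0291). MRPS27 and PTCD2, another pentatricopeptide-repeat gene, start 133 bases apart and both fell, by 1.03 and 0.89. MRPL40 and the histone chaperone gene HIRA, 812 bases apart, moved in opposite directions, by 0.61 and −1.03. Among 17 such neighbours measured, 10 had the sign of the member, with the MRPL46 and MRPS11 pair counted from each side.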

How the data were processed

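Gene expression was measured on single-colour, biotin-labelled arrays. The values deposited by the authors are log2 signals per probe set, and per the submitters' processing notes RMA and Partek were used, with no version, role or order stated. Scanner files were not used here, so background correction was not varied, and the genome build of the array is not given in the sources used here. Of 33297 probe sets, 19181 had 1 gene symbol, 2055 several, and 12061 were not in the probe table. No filter on low values was applied. Arrays have no read depth, and their number limits the precision.

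Comparisons used limma 3.58.1 under R 4.3.3 (lmFit with 1 mean per group over 12 arrays, eBayes, two-sided, Benjamini-Hochberg over 17958 genes). With 3 arrays a group, the smallest two-sided exact permutation p is 0.1. The members, lists and tests were chosen with earlier results of these data known. Members past the threshold are named, or where none passed the 3 largest changes each way, with up to 4 genes of each other list by smallest p. HSD17B10, MRRF, NRF1, ESR1, AQP4, VIM, the divergent neighbours and the stable 5 were picked after their values were seen. A part of the rule that names members by highest and lowest level was left out, since signals of different probe sets cannot be compared. Gene names, lengths and starts came from RefSeq on GRCh38.p14.

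Between the astrocyte groups, deviations of same-number arrays correlated in all 3 pairs (r = 0.789, 0.756 and 0.214). By a rule that all 3 pass 0.1 the numbers pair these groups, although no label explains the numbers. Replicate 1 of vehicle and replicate 3 of estradiol also gave r = 0.396, above the 0.214 of the same-number pair 3. The values therefore do not establish the pairing. In no other pair of groups compared did all 3 correlations pass 0.1. Compared as pairs, no member was called between the astrocyte groups. On simulated data for the vehicle comparison, limma recovered 23.4% of genes changed by 1 and 76.6% of those changed by 2 (log2), with 5.4 false calls on average among 17958 genes. These rates hold for the simulated data only. In the measured data the median SD of all genes was 0.14 to 0.54 by group, and many members moved together on single arrays. The rates may therefore not carry over. Alternatives were a replicate block, quantile normalization, median centring, the array SD as a covariate, arrayWeights, only the compared groups, a mean over probe sets, other thresholds and arrays left out in turn.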

Additional observations from a re-analysis of the deposited data

How the results depend on the processing

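No change of the 16 members called over both treatments turned direction under any setting tried. Counts of members called moved more. Over both treatments, with 16 as reported, they were 25 with quantile normalization, 32 with the array SD, 49 with arrayWeights and 29 without replicate 2 of both astrocyte groups. Under vehicle, with 0 as reported, they were 5 with the replicate block, 18 with the array SD, 37 with arrayWeights, 5 with the compared groups only, 9 without replicate 2 of both astrocyte groups and 4 at an adjusted p under 0.10. Under estradiol, with 3 as reported, they were 9, 7, 53, 0, 12 and 9 under the same settings, and 5 with quantile normalization. For estradiol against vehicle with astrocytes arrayWeights called 4, and for the interaction 2. The share of all genes called moved as well. Over both treatments it was 47.5% as reported, 32.3% with quantile normalization and 13.6% with the array SD. Under vehicle it was 0.0557% as reported and 5.45% with the array SD. Under estradiol it was 13.2%, 2.95% with quantile normalization and 1.89% with the array SD. For the other settings, arrays left out among them, that share is not given here. The fit of arrayWeights stopped before it reached its tolerance. The members' median change became 0.56 under vehicle, 0.52 under estradiol and 0.56 over both treatments with the array SD. With single arrays left out, the members called ranged from 0 to 12 under vehicle, 0 to 10 under estradiol and 5 to 25 over both, and the interaction median from −0.47 to 0.31. The members' median change ranged from −0.26 to 0.11, −0.59 to 0.18 and −0.34 to 0.09 in those 3 astrocyte comparisons, and from −0.03 to 0.15 for estradiol alone, so its sign turned in each. The replicate block rests on a pairing that passed the rule on correlations for the astrocyte groups only, where the values do not establish it. The cause of these movements was not tested.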

Other observations

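For MRPS6, MRPS28, MRPL57, MRPS12, MRPS18A and MRPS18C, 6 further mitochondrial ribosomal protein genes, every probe set also names a neighbour, and the values cannot be assigned to either gene. The probe set of MRPS6 and the inositol transporter SLC5A3 read 7.97 ± 0.16 (SD, n = 6) alone and 6.53 ± 1.1 with astrocytes. That of MRPS28 and TPD52 read 5.09 ± 0.40 and 4.35 ± 0.75. MRPL57 shares 2 probe sets with the kinetochore gene SKA3, which differed in direction, with 6.19 ± 0.16 and 6.39 ± 0.46 in one and 8.05 ± 0.39 and 7.14 ± 0.91 in the other. MRPS12 and the synthetase gene SARS2 read 6.01 ± 0.32 and 6.20 ± 0.22 in one probe set, and 6.47 ± 0.14 and 6.81 ± 0.51 in the other. MRPS18A and RSPH9 read 3.15 ± 0.16 and 3.84 ± 0.41, and 8.48 ± 0.13 and 8.49 ± 0.68. MRPS18C and ABRAXAS1 read 3.86 ± 0.61 and 3.70 ± 0.70. Of these 9 probe sets, that of MRPS6 and SLC5A3 had every array with astrocytes (4.54 to 7.49) below every array alone (7.69 to 8.16), and in the other 8 they overlapped. Among all genes measured, 11.3% had every array with astrocytes below every array alone. No test was made.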
